A study of Mus musculus with 12 samples.

Results

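The comparison set 2 cultures of mouse CD4+ T cells against each other, one fed with IL-6 and IL-21 to drive follicular helper T (Tfh) differentiation and one fed with IL-12 to drive T helper 1 (Th1) differentiation. It used 6 of the 12 RNA-seq libraries of the series, 3 per culture, assigned to the groups by the sample titles. The comparison itself was chosen with earlier results of these data known. Both cultures began with naive CD4+ T cells from spleen and lymph nodes of wild-type C57BL/6J mice aged 7 weeks, and both were grown on plates coated for CD3 and CD28 in RPMI with serum. The Tfh_WT culture received IL-6 and IL-21, each at 50 ng/ml, together with blocking antibodies to 3 cytokines (IL-4, IFNγ and TGFβ), each at 10 µg/ml. The Th1_WT culture received IL-12 at 10 ng/ml and the IL-4 blocking antibody at 10 µg/ml, so that IFNγ and TGFβ were blocked in Tfh_WT alone. The titles give a culture time of 24 h and the protocol 48 h, and which of them applies was not settled. The 2 groups therefore differ in cytokines and in blocking antibodies at once, and the libraries cannot tell these apart. Tfh_WT and Th1_WT are used below as names of the media, and no label says whether the 3 libraries of a group came from separate mice or cultures. The p-values thus rest on differences among libraries that could be technical repeats.

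As background, IL-6 binds a receptor that signals through the chain gp130, and IL-21 binds the IL-21 receptor. Both act mainly through the transcription factor STAT3, which in CD4+ T cells favours Tfh and Th17 genes, IL-21 itself among them. IL-12 acts through STAT4, which together with the factor T-bet (Tbx21) drives IFNγ and the Th1 programme. IFNγ secreted by T cells acts back on them and raises GTPases of cell-autonomous defence and the genes of MHC class I presentation. TGFβ drives Foxp3, the factor that defines regulatory T (Treg) cells, in activated naive cells.

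In the Tfh_WT libraries Il21, Foxp3, almost every mitosis gene tested and many targets of hypoxia-inducible factor (HIF) were higher than in the Th1_WT libraries. In the Th1_WT libraries Tbx21, Irf8, the interferon-induced GTPases Ifi47 and Irgm1, and Bst2 were higher relative to the typical gene. The classical Tfh markers Cxcr5, Bcl6 and Pdcd1 did not pass the test with the scaling, whereas all 3 were called higher as deposited, as were 48.4% of genes.

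The 2 groups of libraries differed in composition as well as in single genes. A set of 12 very abundant gene models, called satellite-like in an earlier analysis of these data, took 2.75 to 13.3% of TPM (a length-corrected share of the transcripts in a library) in Tfh_WT and 33.7 to 62.3% in Th1_WT, a difference of -38.3 percentage points with p = 0.1 in an exact two-sided permutation test, the lowest value possible for 3 against 3 libraries. The models were chosen with earlier results of these same libraries known, so this p-value gives no independent support for the difference. Of 35492 gene symbols, 2911 to 4880 were listed at 0 in a Tfh_WT library and 6913 to 14691 in a Th1_WT library. Spearman correlations of TPM over genes were 0.951 to 0.966 within Tfh_WT, 0.851 to 0.884 within Th1_WT and 0.815 to 0.865 between the groups, so the Th1_WT libraries also differed more among themselves. The files hold no counts, the depth of each library is therefore unknown, and a gene at 0 can only be said to be listed at 0. Because the TPM in a library have a fixed sum, each column was divided by a median-of-ratios size factor, 1.10 to 1.30 in Tfh_WT and 0.472 to 0.668 in Th1_WT. All values below are these scaled TPM unless stated. Without the scaling the median log2 fold change of the genes tested was 0.86, and with it 0.044, a shift of 0.875 over the same genes. Every "higher" and "lower" below is relative to that scaling, and where a named gene has another call with the values as deposited, that is given beside it. Fewer cells of a kind and less RNA per cell cannot be told apart in these bulk samples.

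Of 20005 genes whose mean reached 1 TPM in 1 of the 2 groups, limma called 2065 higher in Tfh_WT (10.3%) and 1303 lower (6.51%) at an adjusted p under 0.05. Fold changes are differences of log2(TPM + 1), Tfh_WT minus Th1_WT, given ± limma's standard error; they understate changes of genes near 0. As deposited, 9827 genes (48.4%) were called higher and 126 (0.621%) lower. All 2065 genes called higher with the scaling were also called higher as deposited, whereas 124 of the 1303 lower ones were called lower both ways and 459 of them had a deposited log2 fold change above 0. Of the higher genes 736 (35.6%) were listed at 0 in at least 1 Th1_WT library, and 36 of the lower genes in at least 1 Tfh_WT library, while 19.1% of the genes not called were at 0 in a Th1_WT library. Processed pseudogenes made up 630 (30.5%) of the higher genes, 103 (7.9%) of the lower and 14.7% of those not called. Among 15370 protein-coding genes tested, 8.5% were higher and 7.44% lower. The share of lower calls went from 9.84% in the shortest of 4 equal classes of transcript length to 5.05% in the longest, while the share of higher calls stayed between 8.33 and 8.75%. By mean level, from the lowest to the highest of 4 equal classes, lower calls made up 0.625, 5.57, 12 and 11.6%. Higher calls made up 4.79, 10.1, 8.77 and 10.4% of the same classes. The part that depth, RNA quality and repeat RNA have in these calls was not tested.

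**Figure D1:**
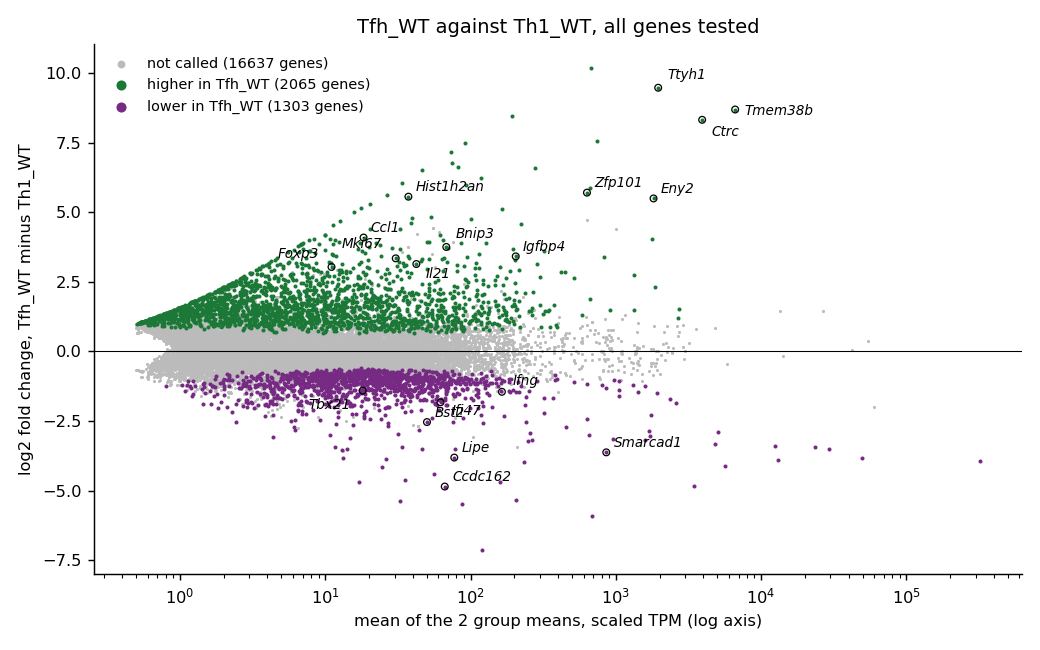
Each point is 1 of the 20005 genes tested, placed by the mean of its 2 group means in scaled TPM (log axis) and by its log2 fold change, Tfh_WT minus Th1_WT, on log2(scaled TPM + 1). Green points are the 2065 genes called higher in Tfh_WT, purple points the 1303 called lower and grey points the rest. Ttyh1, Tmem38b and Ctrc stand at log2 fold changes of 8.33 to 9.48, far above Il21 and Foxp3, and Ccdc162 and Lipe lie well below the zero line.

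Genes were read in lists by role, and a list is described by the number of its members called and by its median log2 fold change, beside 10.3% higher, 6.51% lower and a median of 0.044 over all genes. Lower calls were more frequent at higher levels. For lists of abundant genes, such as ribosomal proteins, the shares of 12 and 11.6% in the upper classes of level are the closer background. Full separation of the 3 and 3 libraries was common whatever the p, with Tfh_WT above in 19.9% of the genes tested and below in 14.4%. Where 6 counts follow a list, they are those with Tfh_WT replicate 1, 2 or 3 and then Th1_WT replicate 1, 2 or 3 left out. The plot of all lists places mitosis and histone genes at the top and MHC class I presentation at the bottom.

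**Figure D2:**
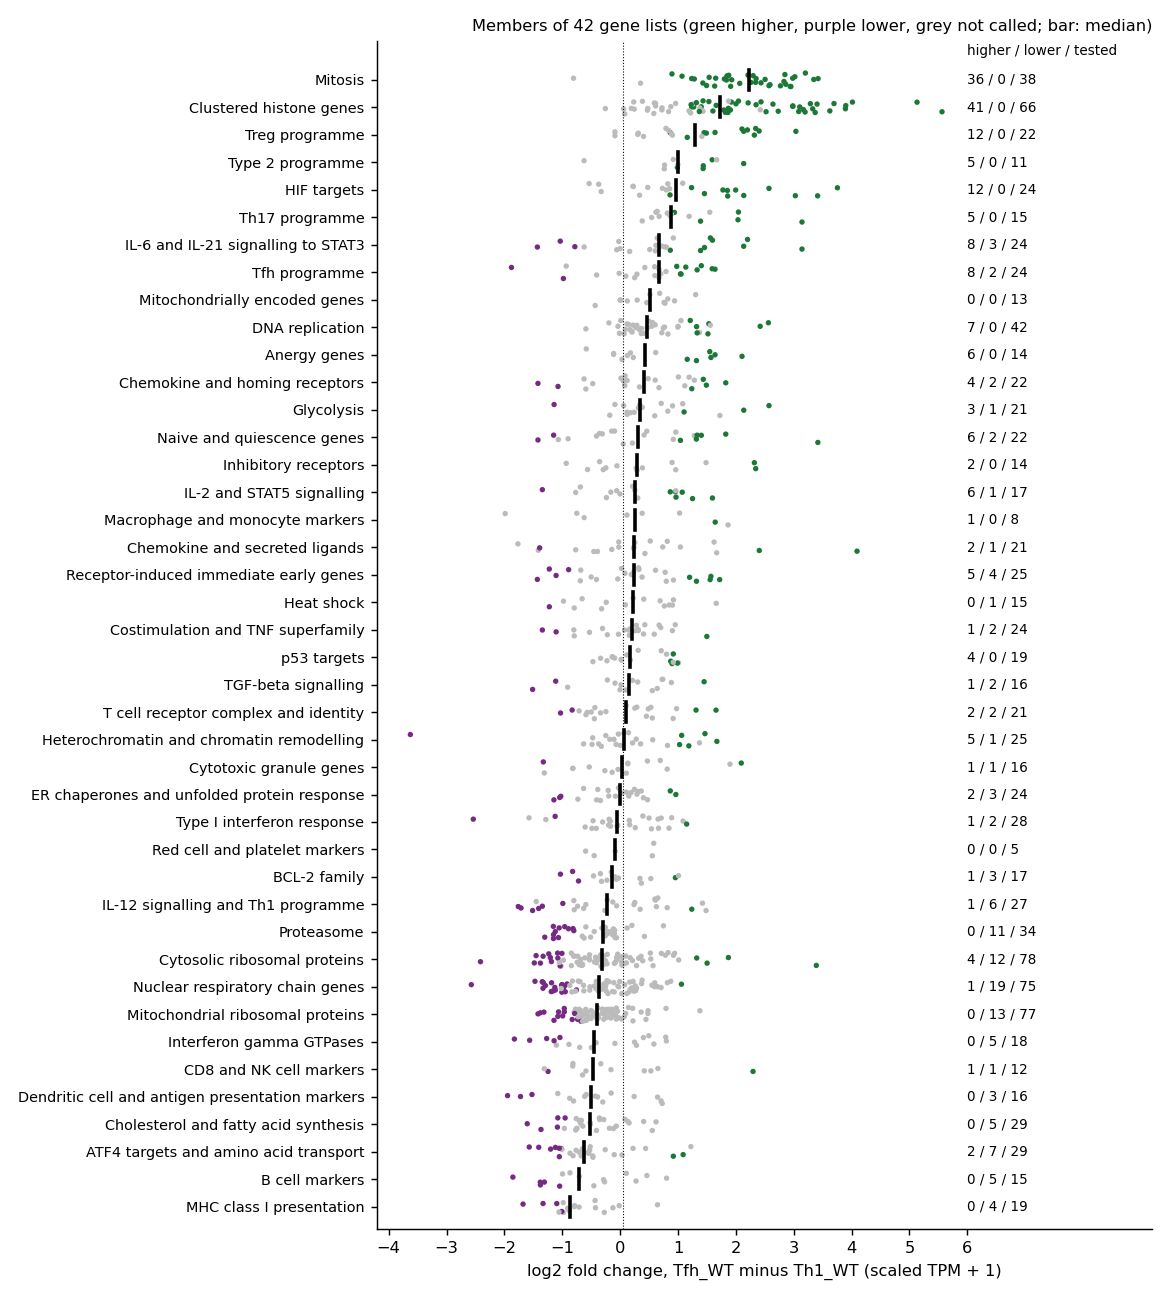
Each point is a gene of the list named on the left, placed by its log2 fold change, Tfh_WT minus Th1_WT, on log2(scaled TPM + 1), green where called higher, purple where called lower and grey where not called. The black bar is the list's median, the dotted line the median of all genes tested (0.044), and the numbers at the right are members higher, lower and tested. Mitosis has 36 of 38 members in green, and the lists at the foot of the plot have medians from -0.30 to -0.87 with at most 19 members in purple.

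The receptors and signal carriers of the added cytokines showed modest differences. Il6st encodes gp130, the signalling chain of the IL-6 receptor. Its values were 32.2, 18.1 and 24.3 TPM in Tfh_WT and 69.5, 34.4 and 54.0 in Th1_WT. Each Tfh_WT library lay below each Th1_WT library (log2 fold change -1.03 ± 0.33, limma adjusted p = 0.0498, not called as deposited at 0.02). Il6st kept its call only without Th1_WT replicate 2 and lost it without any 1 of the other 5 libraries (adjusted p = 0.0513 to 0.192). Il6ra, the IL-6 binding chain, stood at 13.4, 9.04 and 10.99 TPM in Tfh_WT and 6.52, 4.97 and 9.87 in Th1_WT, and Il21r, the IL-21 receptor chain, at 116, 93.2 and 81.7 TPM in Tfh_WT and 50.0, 47.3 and 82.7 in Th1_WT. In both genes 1 or more Th1_WT libraries overlapped the Tfh_WT range, and limma called neither (adjusted p = 0.124 and 0.0762), although as deposited both were called higher (log2 fold change 1.52 and 1.78). Without Th1_WT replicate 3 both were called higher, at adjusted p = 0.0381 for Il6ra and 0.0184 for Il21r. Neither chain of the IL-12 receptor passed the test with the scaling. Il12rb1 had values of 42.6, 40.2 and 30.8 TPM in Tfh_WT and 45.1, 58.2 and 95.4 in Th1_WT, and Il12rb2, the other chain, 43.1, 35.7 and 29.6 TPM in Tfh_WT and 11.3, 27.6 and 25.1 in Th1_WT. The groups did not overlap in either gene, the adjusted p was 0.0772 and 0.189, and without Th1_WT replicate 1 Il12rb1 was called lower at adjusted p = 0.0275. As deposited Il12rb2 was called higher (log2 fold change 1.83, limma adjusted p = 0.00433) and Il12rb1 was not called at 0.32. Stat3 and Stat4, the transcription factors downstream, overlapped between groups and were not called with the scaling (log2 fold change 0.16 ± 0.34, limma adjusted p = 0.774, called higher as deposited at 1.23 for Stat3 and log2 fold change -0.22 ± 0.28, limma adjusted p = 0.621, called higher as deposited at 0.83 for Stat4).

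Of 24 genes listed for IL-6 and IL-21 signalling to STAT3, 8 were higher, 3 lower and 13 not called, with a median of 0.68. The 6 counts of higher members were 5, 6, 4, 6, 8 and 10, and of lower members 1, 0, 0, 1, 3 and 1. Il21 (chr3:37222759-37232636, minus strand, GRCm38) encodes the cytokine that the medium also supplied as protein. It stood at 89.1, 80.8 and 57.7 TPM in Tfh_WT and 2.74, 12.4 and 11.52 in Th1_WT. The lowest Tfh_WT library was 4.64 times the highest Th1_WT library (log2 fold change 3.14 ± 0.43, limma adjusted p = 0.000538). Maf, a factor that activates Il21 and Il10, had values of 16.7, 11.46 and 20.6 TPM in Tfh_WT and 2.68, 3.01 and 2.31 in Th1_WT and no overlap (log2 fold change 2.20 ± 0.38, limma adjusted p = 0.00237). Il10, which encodes an inhibitory cytokine, followed at 12.6, 8.27 and 17.2 TPM in Tfh_WT and 0.98, 2.94 and 2.48 in Th1_WT. It was called higher (log2 fold change 2.14 ± 0.50, limma adjusted p = 0.0122). Il10 was no longer called without Tfh_WT replicate 3 (adjusted p = 0.0585). Rora, a receptor of the ROR family, was 11.6, 9.03 and 10.6 TPM in Tfh_WT and 4.15, 2.74 and 3.23 in Th1_WT, again with no overlap (log2 fold change 1.39 ± 0.30, limma adjusted p = 0.00808). Prdm1, also listed for IL-2 and STAT5 signalling, was called higher and kept its call in 3 of the 6 fits that leave out 1 library. Irf4, a factor induced by T cell receptor signals, went the other way at 166, 115 and 121 TPM in Tfh_WT and 249.9, 398 and 460.3 in Th1_WT (log2 fold change -1.43 ± 0.34, limma adjusted p = 0.0126, not called as deposited at -0.35). Irf4 was no longer called without Tfh_WT replicate 2 (adjusted p = 0.0604) or Tfh_WT replicate 3 (adjusted p = 0.0519).

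The Tfh programme, 24 genes tested, had 8 members higher and 2 lower and a median of 0.67; the 6 counts of higher members were 3, 5, 3, 6, 8 and 8 and of lower members 1, 1, 1, 2, 1 and 1. As deposited 20 of the 24 were called higher and 0 lower. None of its 3 best-known genes passed the test with the scaling, and all 3 did as deposited. Bcl6, the master repressor of Tfh cells, had 5.84, 4.73 and 4.94 TPM in Tfh_WT and 3.05, 3.39 and 2.79 in Th1_WT, and although the groups did not overlap the test did not call it (log2 fold change 0.60 ± 0.21, limma adjusted p = 0.0734, called higher as deposited at 1.39). Cxcr5, the chemokine receptor that takes cells into follicles, had 6.68, 4.79 and 5.18 TPM in Tfh_WT and 1.6004, 4.84 and 3.49 in Th1_WT. 1 Th1_WT library lay within the Tfh_WT range (log2 fold change 0.67 ± 0.30, limma adjusted p = 0.144, called higher as deposited at 1.45). Pdcd1, encoding the receptor PD-1, had 17.4, 13.9 and 16.4 TPM in Tfh_WT and 6.03, 15.7 and 21.4 in Th1_WT and overlapped fully (log2 fold change 0.29 ± 0.36, limma adjusted p = 0.605, called higher as deposited at 1.27). Members that did pass included Lef1, a TCF family factor that acts before Bcl6, at 229.5, 189 and 151 TPM in Tfh_WT and 74.5, 73.8 and 73.0 in Th1_WT (log2 fold change 1.33 ± 0.28, limma adjusted p = 0.00764). The 3 Th1_WT libraries agreed closely in this gene and lay below every Tfh_WT library. Izumo1r, encoding folate receptor 4, was 75.6, 56.4 and 61.3 TPM in Tfh_WT and 10.7, 26.7 and 26.9 in Th1_WT (log2 fold change 1.64 ± 0.31, limma adjusted p = 0.00414). Id3, which restrains E protein factors, was the lower member with the largest difference, at 14.99, 11.4 and 9.69 TPM in Tfh_WT and 37.9, 33.7 and 77.0 in Th1_WT (log2 fold change -1.88 ± 0.30, limma adjusted p = 0.0016, not called as deposited at -0.84). The other lower member was Cd200, which was not called as deposited. Klf2, which is also on the list of naive and quiescence genes, was among the higher members. The counts do not tell members that favour the Tfh fate from members that oppose it. Of the 6 fits that leave out 1 library, Cd200 kept its call in 1 and Klf2 in 2.

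**Figure D3:**
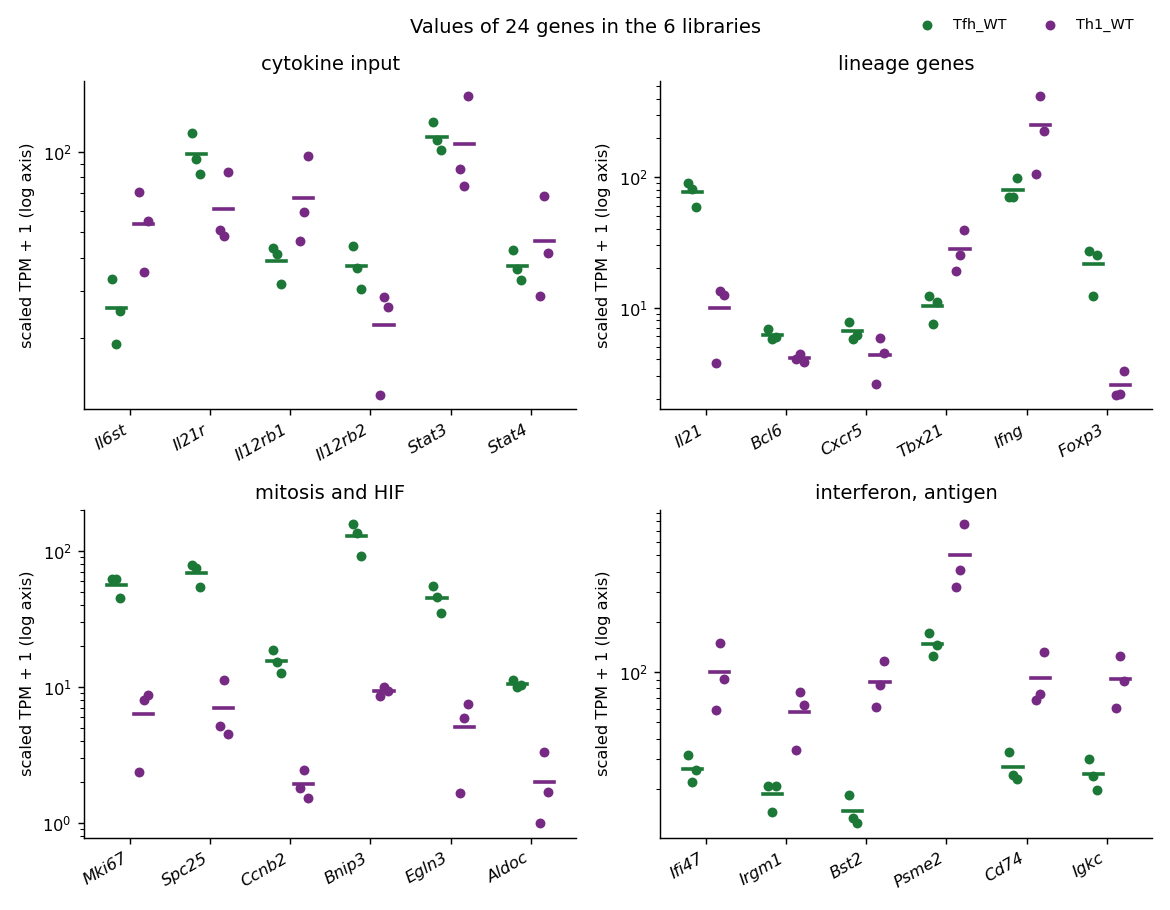
Each point is 1 library, green for Tfh_WT and purple for Th1_WT, and each bar the mean of 3, on a log axis of scaled TPM + 1 that differs between panels. Receptors and STAT genes overlap or nearly touch, Cxcr5 overlaps, and Il21, Foxp3, the mitosis and HIF genes and the interferon and antigen genes separate into 2 groups of 3.

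On the Th1 side, 6 of 27 genes listed for IL-12 signalling and the Th1 programme were lower in Tfh_WT and 1 was higher, with a median of -0.22 that was 0.75 as deposited. The 6 counts of lower members were 4, 3, 4, 9, 4 and 5, and as deposited 13 members were called higher and 0 lower. Tbx21 (chr11:97098071-97115331, minus strand) had 11.3, 6.54 and 9.99 TPM in Tfh_WT and 18.1, 24.3 and 38.4 in Th1_WT. Its highest Tfh_WT library was below its lowest Th1_WT library (log2 fold change -1.41 ± 0.31, limma adjusted p = 0.00837, not called as deposited at -0.39). Ifng, the effector cytokine of Th1 cells, had 69.9, 69.6 and 97.4 TPM in Tfh_WT and 104, 419.6 and 226 in Th1_WT. The 3 Th1_WT libraries were all above the 3 Tfh_WT libraries, but they spread widely among themselves and the gene was not called (log2 fold change -1.45 ± 0.54, limma adjusted p = 0.0833). Without Th1_WT replicate 1, the lowest of that group, it was called (adjusted p = 0.0261). Irf8, an interferon regulatory factor, was 32.7, 19.2 and 27.1 TPM in Tfh_WT and 65.7, 73.0 and 149 in Th1_WT (log2 fold change -1.76 ± 0.30, limma adjusted p = 0.00225, not called as deposited at -0.70), and Gadd45b, an activator of the p38 pathway, was 25.7, 16.3 and 23.4 TPM in Tfh_WT and 71.5, 57.1 and 93.0 in Th1_WT (log2 fold change -1.71 ± 0.34, limma adjusted p = 0.0055, not called as deposited at -0.66). Both had every Tfh_WT library under every Th1_WT library. Cxcr3, a Th1 homing receptor, was the member called in the other direction, at 6.604, 4.51 and 6.06 TPM in Tfh_WT and 0.716, 2.32 and 2.95 in Th1_WT (log2 fold change 1.24 ± 0.39, limma adjusted p = 0.0446). Cxcr3 kept its call only without Th1_WT replicate 3 and lost it without any 1 of the other 5 libraries (adjusted p = 0.053 to 0.133).

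Many genes of other helper fates, most often those of the Treg programme, were higher in Tfh_WT. Of 22 Treg genes, 12 were higher and 0 lower, with a median of 1.29, and 8 to 16 were called in the 6 fits that each leave out a library. The share called higher was 54.5%, against 10.3% of all genes. Foxp3 (chrX:7573644-7595245, plus strand) had 26.1, 11.3 and 24.4 TPM in Tfh_WT and 1.15, 1.16 and 2.28 in Th1_WT (log2 fold change 3.04 ± 0.35, limma adjusted p = 0.000174). The second Tfh_WT library was the lowest of its group and still 4.93 times the highest Th1_WT library. Ikzf2, encoding Helios, a factor of Treg cells, repeated that order at 48.3, 22.2 and 48.2 TPM in Tfh_WT and 3.81, 7.18 and 8.69 in Th1_WT (log2 fold change 2.40 ± 0.37, limma adjusted p = 0.00113). The inhibitory receptors Tigit, at 195, 193 and 271 TPM in Tfh_WT and 54.3, 54.4 and 24.9 in Th1_WT (log2 fold change 2.34 ± 0.37, limma adjusted p = 0.00143), and Ctla4, at 182, 134 and 146 TPM in Tfh_WT and 16.5, 53.3 and 29.8 in Th1_WT (log2 fold change 2.32 ± 0.42, limma adjusted p = 0.00314), were at much higher levels in both cultures and also separated fully. They were the only 2 called of 14 inhibitory receptor genes. Nt5e, the ectoenzyme CD73 that makes adenosine, was 19.0, 12.7 and 17.5 TPM in Tfh_WT and 1.87, 5.02 and 2.67 in Th1_WT (log2 fold change 2.11 ± 0.27, limma adjusted p = 0.000423). Each Tfh_WT library was above each Th1_WT library. Foxp3 was called in all 6 fits that leave out 1 library, as were Ikzf2, Tigit, Ctla4 and Nt5e.

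Of 15 Th17 genes, 5 were higher and 0 lower (median 0.89). Il17a, encoding the cytokine IL-17A of Th17 cells, was 6.68, 2.84 and 4.61 TPM in Tfh_WT and 0, 1.40 and 0 in Th1_WT (log2 fold change 2.04 ± 0.47, limma adjusted p = 0.0108). Il17a was listed at 0 in 2 of the 3 Th1_WT libraries and all its values were low. Of 11 type 2 genes tested, 5 were higher and 0 lower (median 1.00); the 6 counts were 2, 5, 1, 2, 5 and 6. Gata3, the factor that directs the type 2 programme, was 44.1, 27.5 and 41.6 TPM in Tfh_WT and 14.999, 14.6 and 27.1 in Th1_WT (log2 fold change 0.99 ± 0.26, limma adjusted p = 0.0209). Gata3 kept its call only without Tfh_WT replicate 2 or Th1_WT replicate 3 and lost it without any 1 of the other 4 libraries (adjusted p = 0.058 to 0.0854). The chemokine receptor Ccr4 was 27.1, 19.0 and 23.9 TPM in Tfh_WT and 5.52, 9.90 and 8.95 in Th1_WT and kept its call in all 6 fits that leave out 1 library (log2 fold change 1.44 ± 0.30, limma adjusted p = 0.00662). Il4 stayed under 6 TPM in every library although called higher (log2 fold change 1.59 ± 0.44, limma adjusted p = 0.0264). Il4 kept its call only without Tfh_WT replicate 2 or Th1_WT replicate 2 or Th1_WT replicate 3 and lost it without any 1 of the other 3 libraries (adjusted p = 0.0805 to 0.0959).

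Secreted factors and cytotoxic genes held a few wide differences among many that did not pass. Of 21 chemokine and secreted ligand genes, 2 were higher and 1 lower (2 higher and 0 to 3 lower with 1 library left out). Ccl1, a chemokine that attracts CCR8-bearing cells, was 37.6, 25.6 and 42.6 TPM in Tfh_WT and 3.24, 1.12 and 0 in Th1_WT (log2 fold change 4.09 ± 0.54, limma adjusted p = 0.000463). Penk, the precursor of enkephalin peptides, was 31.0, 15.6 and 35.4 TPM in Tfh_WT and 2.18, 4.58 and 6.35 in Th1_WT (log2 fold change 2.40 ± 0.37, limma adjusted p = 0.00117). Both separated fully, and the second Tfh_WT library was the lowest of its group in each, as in Foxp3 and Ikzf2. Ccl22 had 8.595, 7.11 and 6.23 TPM in Tfh_WT and 8.74, 40.2 and 24.3 in Th1_WT, with the first Th1_WT library just above the Tfh_WT range (log2 fold change -1.39 ± 0.44, limma adjusted p = 0.0469, not called as deposited at -0.40). Ccl22 kept its call only without Th1_WT replicate 1 and lost it without any 1 of the other 5 libraries (adjusted p = 0.0802 to 0.14). Of 16 cytotoxic granule genes 1 was higher and 1 lower (0 to 2 higher and 0 to 2 lower with 1 library left out). Gzmb encodes granzyme B, the most abundant protease of killer cells. It stood at 315, 227 and 232 TPM in Tfh_WT and 27.4, 142 and 79.1 in Th1_WT. The Tfh_WT libraries were all higher, but the Th1_WT libraries spread widely and the gene was not called (log2 fold change 1.90 ± 0.74, limma adjusted p = 0.097, called higher as deposited at 2.96). Gzmc was called higher (log2 fold change 2.09 ± 0.54, limma adjusted p = 0.0195). Gzmc kept its call only without Tfh_WT replicate 3 or Th1_WT replicate 2 or Th1_WT replicate 3 and lost it without any 1 of the other 3 libraries (adjusted p = 0.0551 to 0.0696). Klrc1, an inhibitory NK receptor chain, was called lower (log2 fold change -1.33 ± 0.32, limma adjusted p = 0.0135, not called as deposited at -0.34). Klrc1 was no longer called without Tfh_WT replicate 3 (adjusted p = 0.0577).

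Among growth and identity genes, Il2 had 101, 93.0 and 94.7 TPM in Tfh_WT and 80.2, 336 and 165 in Th1_WT and overlapped (log2 fold change -0.77 ± 0.51, limma adjusted p = 0.322); its deposited log2 fold change was above 0 at 0.31. Il2ra, the high-affinity IL-2 receptor chain, had 477, 337 and 373 TPM in Tfh_WT and 198, 222 and 223 in Th1_WT and no overlap (log2 fold change 0.87 ± 0.24, limma adjusted p = 0.0288). Il2ra kept its call only without Th1_WT replicate 2 or Th1_WT replicate 3 and lost it without any 1 of the other 4 libraries (adjusted p = 0.0605 to 0.101). The STAT5-induced inhibitor Socs2 was 18.4, 13.3 and 22.1 TPM in Tfh_WT and 6.104, 9.24 and 8.49 in Th1_WT (log2 fold change 1.07 ± 0.25, limma adjusted p = 0.0115). Socs2 was no longer called without Tfh_WT replicate 3 (adjusted p = 0.0623). Over 17 genes of IL-2 and STAT5 signalling 6 were higher and 1 lower, the 6 counts of higher members being 1, 2, 0, 2, 3 and 4. T cell identity was clear in all 6 libraries. Cd4 had 149, 124 and 109.8 TPM in Tfh_WT and 109, 136 and 346 in Th1_WT and was not called (log2 fold change -0.45 ± 0.36, limma adjusted p = 0.417). Cd8a stayed between 2.57 and 5.55 TPM, with every Tfh_WT library above every Th1_WT library. With the scaling Cd8a was not called, whereas as deposited it was called higher. Thy1, a surface glycoprotein of T cells, was 492, 353 and 529.9 TPM in Tfh_WT and 128, 122 and 185 in Th1_WT, so that every Tfh_WT library was above every Th1_WT library (log2 fold change 1.66 ± 0.27, limma adjusted p = 0.0019). Of 21 receptor complex and identity genes 2 were higher and 2 lower (1 to 3 higher and 0 to 1 lower with 1 library left out), and none was lower under trimmed-mean scaling or in the fit of the 6 libraries alone. Besides Thy1 the higher member was Cd3g, and the lower ones were Trbc2 and Ptprc, neither of them called as deposited.

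TGFβ signalling genes, of interest because TGFβ was blocked in Tfh_WT alone, had 1 of 16 members higher and 2 lower (1 to 4 higher and 0 to 2 lower with 1 library left out). Smad3, a carrier of the TGFβ signal to the nucleus, was higher at 22.9, 16.3 and 17.9 TPM in Tfh_WT and 5.27, 5.01 and 9.14 in Th1_WT with no overlap (log2 fold change 1.45 ± 0.28, limma adjusted p = 0.00425). Furin, the protease that processes the TGFβ precursor, was lower at 41.0, 28.7 and 35.4 TPM in Tfh_WT and 77.0, 62.9 and 210.4 in Th1_WT (log2 fold change -1.51 ± 0.36, limma adjusted p = 0.0138, not called as deposited at -0.45). Furin was no longer called without Tfh_WT replicate 2 (adjusted p = 0.0655). In Furin the third Th1_WT library stood far above the other 2, and no Tfh_WT library reached that group. Of 24 costimulation and TNF superfamily genes 1 was higher and 2 lower (1 to 2 higher and 0 to 2 lower with 1 library left out). The higher one was Tnfrsf8, encoding the activation antigen CD30, at 14.9, 9.19 and 12.4 TPM in Tfh_WT and 2.07, 4.08 and 5.17 in Th1_WT (log2 fold change 1.50 ± 0.28, limma adjusted p = 0.00396), with every Tfh_WT library above every Th1_WT library. Chemokine and homing receptors had 4 of 22 higher and 2 lower (2 to 4 higher and 2 lower with 1 library left out).

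Genes of receptor-induced activation and of quiescence did not move as blocks. Of 25 immediate early genes, 5 were higher and 4 lower (2 to 7 higher and 0 to 5 lower with 1 library left out). Egr1, at 50.4, 32.0 and 39.8 TPM in Tfh_WT and 16.4, 7.54 and 17.4 in Th1_WT (log2 fold change 1.56 ± 0.33, limma adjusted p = 0.0076), and Egr3, at 28.6, 20.8 and 21.9 TPM in Tfh_WT and 5.34, 6.72 and 10.5 in Th1_WT (log2 fold change 1.57 ± 0.27, limma adjusted p = 0.00237), zinc finger factors induced through calcium and ERK signals, were higher without overlap. Cd69, an early activation antigen, was lower at 149, 125 and 123 TPM in Tfh_WT and 231, 385 and 261 in Th1_WT (log2 fold change -1.11 ± 0.26, limma adjusted p = 0.0114, not called as deposited at -0.03). Cd69 was no longer called without Tfh_WT replicate 2 (adjusted p = 0.0543) or Tfh_WT replicate 3 (adjusted p = 0.0503). Of 14 anergy genes, 6 were higher and 0 lower (median 0.42, 4 to 6 higher and 0 lower with 1 library left out). Dgka, which removes diacylglycerol and dampens receptor signals, was 147, 123 and 102 TPM in Tfh_WT and 32.0, 40.6 and 54.2 in Th1_WT with no overlap (log2 fold change 1.55 ± 0.27, limma adjusted p = 0.00256). Of 22 naive and quiescence genes, 6 were higher and 2 lower (4 to 6 higher and 1 to 3 lower with 1 library left out). Igfbp4, a binding protein for insulin-like growth factors, was 457, 411 and 261 TPM in Tfh_WT and 32.1, 35.6 and 32.4 in Th1_WT (log2 fold change 3.42 ± 0.29, limma adjusted p = 2.17e-05). The 3 Th1_WT libraries agreed closely while the Tfh_WT libraries ran from 261 to 457. The lymph node homing genes split. S1pr1, the receptor by which T cells leave lymph nodes, was higher at 17.2, 13.6 and 14.5 TPM in Tfh_WT and 2.72, 4.27 and 3.71 in Th1_WT (log2 fold change 1.83 ± 0.24, limma adjusted p = 0.000396), whereas Ccr7, the receptor by which they enter, was lower at 121, 100.3 and 81.8 TPM in Tfh_WT and 276, 243 and 289.7 in Th1_WT (log2 fold change -1.42 ± 0.26, limma adjusted p = 0.00362, not called as deposited at -0.34). Gpr183, an oxysterol receptor that places cells at follicle borders, was also lower at 28.3, 27.1 and 22.5 TPM in Tfh_WT and 60.7, 42.9 and 65.3 in Th1_WT (log2 fold change -1.07 ± 0.22, limma adjusted p = 0.00687, not called as deposited at -0.02). In each of these 3 genes no library of one group reached the range of the other.

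Several genes of the interferon response were lower in Tfh_WT than in Th1_WT. Among 18 GTPases and related genes induced by IFNγ, 5 were lower in Tfh_WT and 0 higher. Their median was -0.46 scaled and 0.58 as deposited, below the median of all genes on both scales but above 0 on the second. The 6 counts of lower members were 4, 3, 3, 7, 4 and 5, and as deposited 1 member was called lower and 7 higher. Ifi47 (chr11:49076587-49096974, plus strand) had 30.7, 20.96 and 24.8 TPM in Tfh_WT and 58.1, 149 and 89.5 in Th1_WT (log2 fold change -1.83 ± 0.30, limma adjusted p = 0.0019), and it was called lower as deposited too (log2 fold change -0.76, limma adjusted p = 0.0383). Irgm1, a GTPase of vacuole defence, was 19.8, 13.6 and 19.8 TPM in Tfh_WT and 33.0, 75.0 and 62.2 in Th1_WT (log2 fold change -1.56 ± 0.30, limma adjusted p = 0.00409, not called as deposited at -0.51). Gbp4, a guanylate binding protein, was 44.2, 33.8 and 39.4 TPM in Tfh_WT and 87.6, 100.2 and 98.4 in Th1_WT (log2 fold change -1.27 ± 0.22, limma adjusted p = 0.00237, not called as deposited at -0.20). In these 3 genes the second Tfh_WT library was the lowest of the 6, and no values overlapped. Irgm2, a relative of Irgm1, was 10.9, 7.57 and 9.86 TPM in Tfh_WT and 18.1, 24.8 and 23.2 in Th1_WT (log2 fold change -1.14 ± 0.29, limma adjusted p = 0.0187, not called as deposited at -0.13). Irgm2 was no longer called without Tfh_WT replicate 2 (adjusted p = 0.0902) or Tfh_WT replicate 3 (adjusted p = 0.0549). The family of type I interferon genes did not follow, with 1 of 28 higher, 2 lower (0 to 1 higher and 1 to 2 lower with 1 library left out) and a median of -0.05, which was 0.03 under trimmed-mean scaling. Bst2, encoding tetherin, a membrane protein that holds back budding virus, was the exception in size. It had 17.4, 12.5 and 11.49 TPM in Tfh_WT and 61.0, 82.9 and 116 in Th1_WT (log2 fold change -2.54 ± 0.35, limma adjusted p = 0.000553), and the deposited log2 fold change was -1.48, also called (adjusted p = 0.0104).

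Sequences before 3 of these genes are shown because 2 copies of GAAA with 2 bases of any kind between them, the core of the element bound by interferon regulatory factors, were found in them. They come from RefSeq windows on GRCm38.p6 that run from 250 bases before to 50 bases after a start site, and capitals mark the match, read 5′ to 3′ on the gene's strand. The Irgm1 stretch is chr11:48871425-48871460, minus strand, that of Irgm2 chr11:58214903-58214932, plus strand and that of Bst2 chr8:71537577-71537612, minus strand.
Irgm1: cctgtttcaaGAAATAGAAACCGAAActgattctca
Irgm2: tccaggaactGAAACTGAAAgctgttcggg
Bst2: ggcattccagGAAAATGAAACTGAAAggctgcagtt
Irgm1 and Bst2 each hold 2 overlapping matches. The core, searched on both strands, was present in 3.93% of the 11887 protein-coding genes tested that have a window. It was in 3.8% of the 895 such genes called lower and in 4.71% of the 956 called higher. Only 10 of the 18 GTPase genes have a window, so no share is given for that list. A match is a string of letters in this window, and binding was not measured.

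MHC class I presentation had 4 of 19 genes lower and 0 higher. The median of -0.87 was the lowest of all lists, and as deposited it was 0.20 against 0.86 for all genes, so the sign flips while the place below the typical gene does not. The 6 counts were 2, 1, 1, 8, 3 and 1. Psme2, a subunit of the PA28 activator of the immunoproteasome, had 169, 124 and 143 TPM in Tfh_WT and 324, 406 and 765 in Th1_WT and no overlap (log2 fold change -1.68 ± 0.32, limma adjusted p = 0.00389, not called as deposited at -0.60). The third Th1_WT library was the highest in Psme2, as in Tbx21, Irf8 and Bst2. The constitutive proteasome shared the direction, with 11 of 34 genes lower and 0 higher and a median of -0.30 that was 0.77 as deposited. Its 6 counts were 9, 3, 2, 13, 9 and 7. The largest differences were in Psmb3 at 88.4, 61.9 and 62.7 TPM in Tfh_WT and 123, 209 and 206 in Th1_WT (log2 fold change -1.30 ± 0.27, limma adjusted p = 0.00677, not called as deposited at -0.23) and Psma1 (log2 fold change -1.15 ± 0.25, limma adjusted p = 0.00888, not called as deposited at -0.08), both subunits of the core particle.

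**Figure D4:**
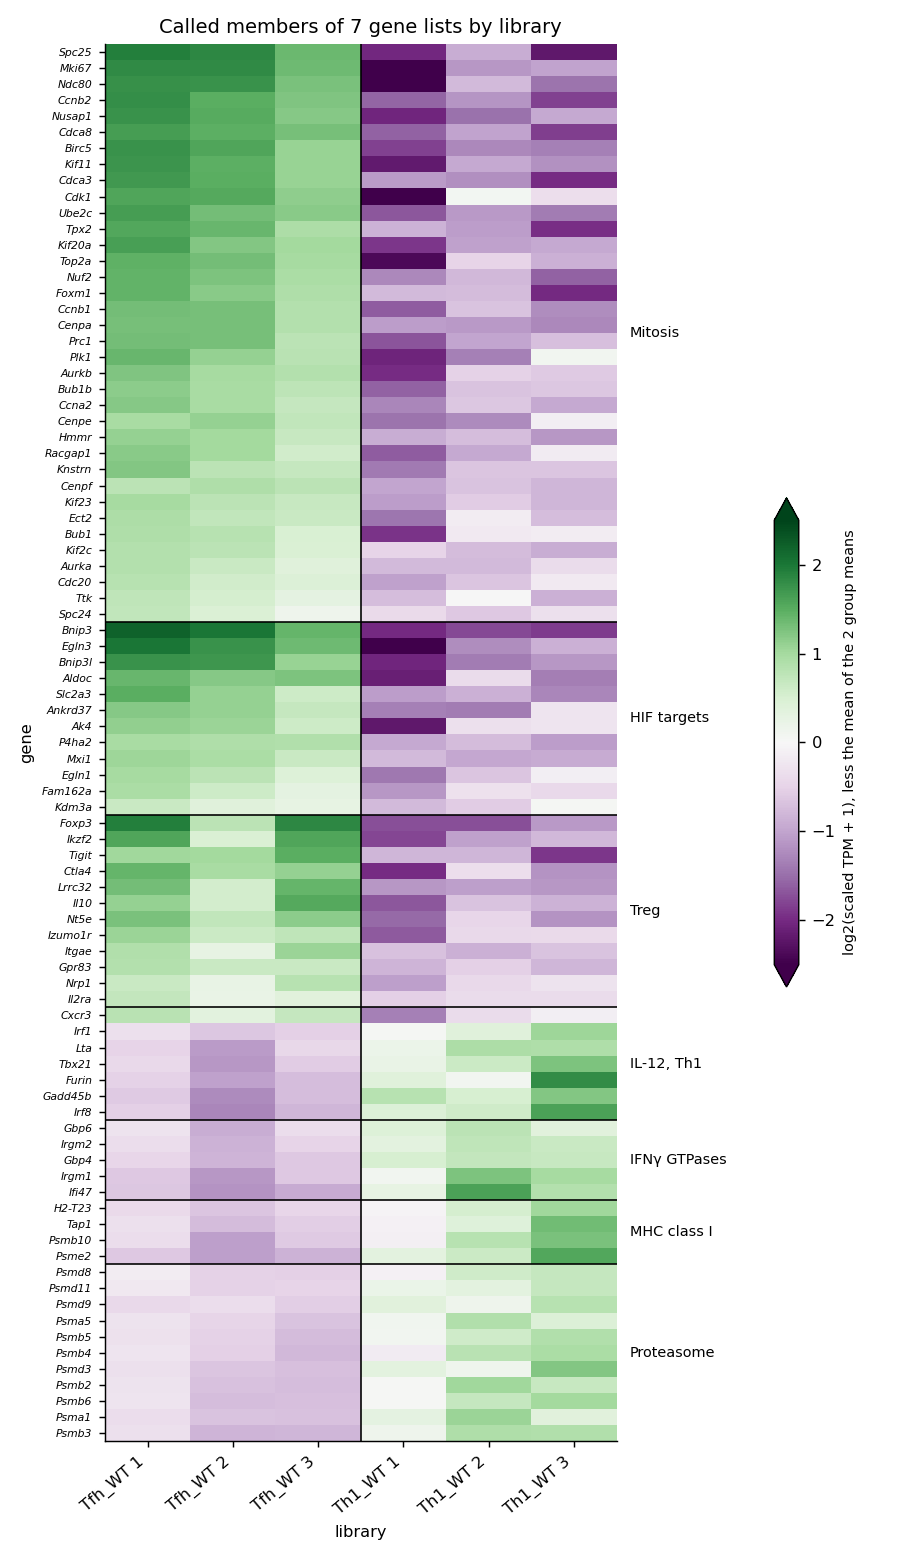
Rows are the called members of 7 lists and columns the 6 libraries. Colour is log2(scaled TPM + 1) less the mean of the 2 group means for that gene, green above it and purple below. In most mitosis and HIF genes the third Tfh_WT library is paler than the other 2, in most Treg genes the second is the palest of its group, and among Th1 genes the third Th1_WT library is often the darkest green.

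The genes of mitosis had the highest share of members called among the 42 lists with a tested member. Of 38 tested, 36 were higher in Tfh_WT, none was lower, and the median was 2.23 scaled and 3.06 as deposited. The share higher was 94.7% against 10.3% of all genes, and leaving out any 1 library left 32 to 35 called. Mki67, encoding the proliferation antigen Ki-67, had 61.3, 61.8 and 44.2 TPM in Tfh_WT and 1.38, 7.08 and 7.73 in Th1_WT (log2 fold change 3.35 ± 0.45, limma adjusted p = 0.000504). Spc25 (78.7, 74.2 and 53.4 TPM in Tfh_WT and 4.19, 10.2 and 3.55 in Th1_WT; log2 fold change 3.42 ± 0.33, limma adjusted p = 6.03e-05) and Ndc80 (36.0, 35.7 and 25.3 TPM in Tfh_WT and 0.825, 5.33 and 2.97 in Th1_WT; log2 fold change 3.20 ± 0.37, limma adjusted p = 0.000174) encode subunits of the complex that ties kinetochores to microtubules. Ccnb2, a cyclin that partners CDK1 at entry to mitosis, was 17.7, 14.2 and 11.7 TPM in Tfh_WT and 0.821, 1.44 and 0.52 in Th1_WT (log2 fold change 3.02 ± 0.28, limma adjusted p = 3.74e-05). In all 4 the groups were far apart, the lowest Tfh_WT library being 4.75 (Ndc80) to 8.12 (Ccnb2) times the highest Th1_WT library. The 2 genes not called were Pttg1, encoding securin, at 15.6, 12.1 and 12.9 TPM in Tfh_WT and 14.6, 33.8 and 28.5 in Th1_WT (log2 fold change -0.81 ± 0.40, limma adjusted p = 0.184, deposited 0.22), and Nek2, a centrosome kinase, at 12.5, 12.8 and 11.01 TPM in Tfh_WT and 11.02, 10.1 and 7.05 in Th1_WT (log2 fold change 0.35 ± 0.23, limma adjusted p = 0.307, called higher as deposited at 1.31). Pttg1 was above the Tfh_WT range in 2 of 3 Th1_WT libraries.

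Promoter stretches of these 4 genes are shown because they hold TTTGAA, the cell cycle genes homology region (CHR), which recruits the DREAM and MuvB complexes that silence mitosis genes in resting cells and activate them in dividing cells. Ccnb2 also holds CCAAT boxes, bound by NF-Y. Capitals mark the motifs, and TTCAAA is the CHR on the other strand. The stretches are chr7:135716462-135716505, minus strand for Mki67, chr2:69206174-69206199, minus strand for Spc25, chr17:71526813-71526838, minus strand for Ndc80 and chr9:70421535-70421731, minus strand for Ccnb2, from RefSeq on GRCm38.p6.
Mki67: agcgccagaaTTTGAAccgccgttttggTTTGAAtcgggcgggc
Spc25: cggtggagagTTTGAAattgaaagac
Ndc80: aactttaaaaTTCAAAccgccttggg
Ccnb2: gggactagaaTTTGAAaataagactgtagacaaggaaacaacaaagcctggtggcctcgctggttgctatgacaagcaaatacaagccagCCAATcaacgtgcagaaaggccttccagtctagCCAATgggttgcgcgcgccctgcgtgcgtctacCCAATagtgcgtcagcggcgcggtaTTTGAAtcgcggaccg
Of the 38 mitosis genes 32 have a window. The CHR was found on either strand in 23 of them (71.9%), CCAAT in 25 (78.1%) and both in 21 (65.6%). Over the 11887 protein-coding genes with a window these shares were 16%, 43.2% and 6.56%. The genes called higher as a whole resembled all genes, with the CHR in 18.8% of 956 protein-coding genes that have a window.

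Genes of DNA replication were above the median of all genes to a smaller degree. Of 42 tested, 7 were higher and 0 lower, with a median of 0.47; the 6 counts were 4, 4, 4, 6, 12 and 7. Lig1, the ligase that joins Okazaki fragments, had 228, 193 and 135 TPM in Tfh_WT and 14.04, 33.5 and 55.6 in Th1_WT (log2 fold change 2.56 ± 0.39, limma adjusted p = 0.00109), and Rrm2, the regulated subunit of ribonucleotide reductase, 90.1, 77.0 and 60.9 TPM in Tfh_WT and 3.62, 23.2 and 24.7 in Th1_WT (log2 fold change 2.42 ± 0.50, limma adjusted p = 0.00659). Ccne1, a cyclin of S phase entry, was 35.0, 36.6 and 28.4 TPM in Tfh_WT and 6.06, 15.5 and 13.5 in Th1_WT (log2 fold change 1.52 ± 0.29, limma adjusted p = 0.00457). In each of these 3 the first Th1_WT library was the lowest of the 6. As deposited 38 of the 42 were called higher.

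Clustered histone genes, expressed mainly in S phase, had 41 of 66 members higher and 0 lower, with a median of 1.73, and the count was 27 without Tfh_WT replicate 1. Hist1h2an was 94.97, 70.5 and 56.1 TPM in Tfh_WT and 0, 2.71 and 0 in Th1_WT (log2 fold change 5.56 ± 0.45, limma adjusted p = 1.35e-05) and Hist1h2af 374, 306 and 253 TPM in Tfh_WT and 0, 12.4 and 49.6 in Th1_WT (log2 fold change 5.13 ± 0.96, limma adjusted p = 0.0038). Hist1h2an was listed at 0 in 2 Th1_WT libraries and Hist1h2af in 1. Histone genes are near-identical copies, how reads were divided between them is not given in the sources used here, and the values of single members are uncertain. Most of their transcripts lack a poly(A) tail, which the libraries did not select for.

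Targets of HIF, the factor stabilised at low oxygen, were often higher in Tfh_WT. Of 24 tested, 12 (50%) were higher and 0 lower, with a median of 0.97, and 10 to 14 were called when any 1 library was left out. Bnip3 and Bnip3l encode receptors for mitochondrial autophagy. Bnip3 (chr7:138890836-138909519, minus strand) had 157, 136 and 90.9 TPM in Tfh_WT and 7.56, 9.06 and 8.38 in Th1_WT (log2 fold change 3.76 ± 0.45, limma adjusted p = 0.000256), and Bnip3l 329, 323 and 208 TPM in Tfh_WT and 22.8, 36.9 and 44.5 in Th1_WT (log2 fold change 3.03 ± 0.32, limma adjusted p = 0.000117). Egln3, a prolyl hydroxylase that marks HIF for degradation, was 54.4, 45.1 and 34.4 TPM in Tfh_WT and 0.673, 4.92 and 6.56 in Th1_WT (log2 fold change 3.41 ± 0.44, limma adjusted p = 0.00038). The lowest Tfh_WT library was 10.0 times the highest Th1_WT library in Bnip3, 4.68 times in Bnip3l and 5.25 times in Egln3. Slc2a3, the glucose transporter GLUT3, was 85.2, 64.9 and 45.8 TPM in Tfh_WT and 13.7, 15.7 and 11.7 in Th1_WT (log2 fold change 2.14 ± 0.24, limma adjusted p = 0.000166), and Aldoc, an aldolase, 10.4, 9.05 and 9.42 TPM in Tfh_WT and 0, 2.34 and 0.695 in Th1_WT (log2 fold change 2.57 ± 0.39, limma adjusted p = 0.00111). The glycolytic enzymes did not follow as a group. Of 21 glycolysis genes 3 were higher and 1 lower (2 to 5 higher and 0 to 1 lower with 1 library left out, median 0.34), and Ldha, lactate dehydrogenase A and a classical HIF target, overlapped at 938, 819 and 599.9 TPM in Tfh_WT and 301, 742 and 1018 in Th1_WT (log2 fold change 0.34 ± 0.39, limma adjusted p = 0.582, called higher as deposited at 1.42). In Ldha the third Th1_WT library was the highest of the 6 and the first the lowest.

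Stretches around ACGTG, the core of the HIF response element, are shown for 3 of the HIF targets called higher, because the list holds targets of that factor. They lie at chr7:138909599-138909624, minus strand for Bnip3, chr12:54204089-54204113, minus strand for Egln3 and chr11:78323090-78323114, plus strand for Aldoc, from RefSeq on GRCm38.p6, with the core or its reverse complement in capitals.
Bnip3: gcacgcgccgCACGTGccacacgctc
Egln3: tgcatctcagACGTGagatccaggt
Aldoc: cccagggagtCACGTagctctgcgg
In Bnip3 the core is present on both strands as CACGTG. Of the 20 HIF targets with a window 17 (85%) held the core, against 26.9% of the 11887 genes. It was also in 14 of the 20 glycolysis genes with a window (70%). Among protein-coding genes with a window, it was in 26.2% of the 956 called higher and 32.4% of the 895 called lower.

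Chromatin genes and stress responses showed scattered calls. Of 25 genes of heterochromatin and chromatin remodelling 5 were higher and 1 lower (2 to 6 higher and 1 lower with 1 library left out), with a median of 0.06. Dnmt1, which copies DNA methylation at replication, was 269, 248 and 181 TPM in Tfh_WT and 41.1, 72.9 and 121 in Th1_WT and did not overlap (log2 fold change 1.67 ± 0.34, limma adjusted p = 0.00614). Atf7ip, a partner of the histone methyltransferase SETDB1, was 169.8, 162 and 161 TPM in Tfh_WT and 62.5, 44.6 and 73.1 in Th1_WT, again with each Tfh_WT library above each Th1_WT library (log2 fold change 1.47 ± 0.25, limma adjusted p = 0.00233). Of 19 p53 targets 4 were higher and 0 lower, and 1 to 3 when any 1 library was left out. The BCL-2 family had 1 of 17 higher and 3 lower (0 higher and 1 to 3 lower with 1 library left out). Chaperones of the endoplasmic reticulum had 2 of 24 higher and 3 lower (0 to 3 higher and 0 to 4 lower with 1 library left out). Heat shock genes had 0 of 15 higher and 1 lower (0 to 2 higher and 0 to 3 lower with 1 library left out), with 4 in each direction at an unadjusted limma p under 0.05.

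4 lists of biosynthesis and nuclear genes for mitochondria had medians below that of all genes, both scaled and as deposited, where all genes stood at 0.86. Their sign depends on the scaling, since as deposited each of these medians is above 0 and no more than 1 member of a list was called lower. Nuclear genes of the respiratory chain had 19 of 75 members lower and 1 higher (median -0.37, 0.70 as deposited; 6 counts of lower members 16, 5, 5, 22, 10 and 17). Atp5g1, which encodes the rotor subunit of ATP synthase, was the member with the largest difference at 40.2, 29.96 and 30.2 TPM in Tfh_WT and 141, 259 and 226 in Th1_WT (log2 fold change -2.57 ± 0.34, limma adjusted p = 0.000427), and it was called lower as deposited as well (log2 fold change -1.50, adjusted p = 0.00254). The 13 genes of the mitochondrial genome had a median of 0.52, above that of all genes. limma called none of them with the scaling, where 2 were higher at an unadjusted p under 0.05, 11 were called higher as deposited, and 2 without Th1_WT replicate 2. Their summed level was 18741 to 22029 TPM in Tfh_WT and ran from 5032.9 in Th1_WT replicate 3 to 39901 in replicate 2, on both sides of the Tfh_WT range. Mitochondrial ribosomal proteins had 13 of 77 lower and 0 higher (median -0.40, 0.62 as deposited; 6 counts 9, 4, 3, 19, 8 and 5), led by Mrpl36 at 16.8, 14.6 and 13.7 TPM in Tfh_WT and 26.3, 60.2 and 45.6 in Th1_WT (log2 fold change -1.42 ± 0.30, limma adjusted p = 0.00677, not called as deposited at -0.38). Cholesterol and fatty acid synthesis had 5 of 29 lower and 0 higher (median -0.52, 0.53 as deposited; 6 counts 4, 1, 0, 12, 5 and 4). Sqle, an early enzyme of sterol synthesis, was 16.4, 14.4 and 13.1 TPM in Tfh_WT and 29.4, 37.9 and 29.1 in Th1_WT (log2 fold change -1.08 ± 0.25, limma adjusted p = 0.0116, not called as deposited at -0.04). Sqle was no longer called without Tfh_WT replicate 3 (adjusted p = 0.0543). Targets of the amino acid stress factor ATF4 had 7 of 29 lower and 2 higher (0 or 1 higher with any 1 library left out, median -0.63, 0.41 as deposited; 6 counts of lower members 2, 0, 0, 9, 6 and 0).

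**Figure D5:**
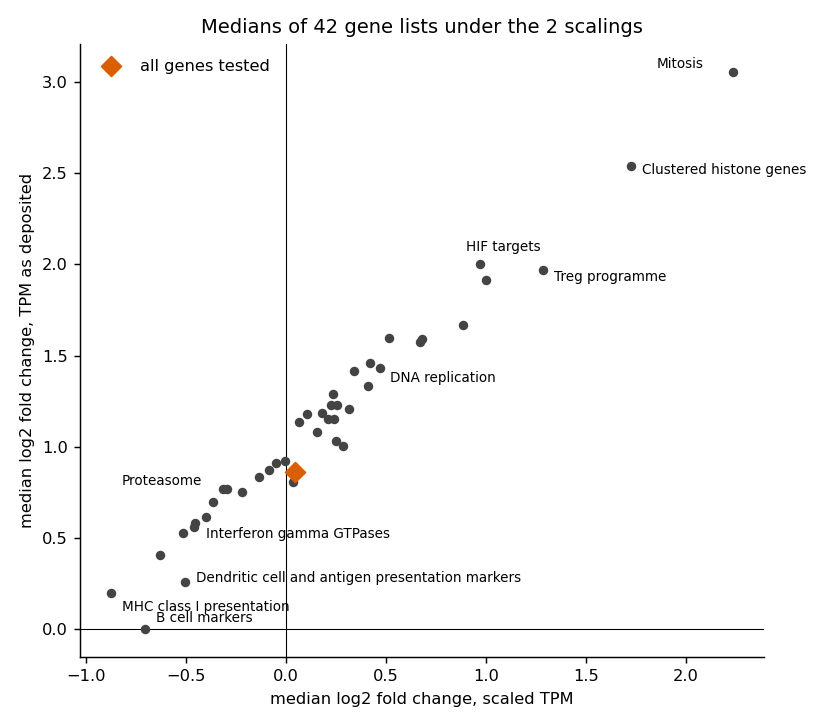
Each point is 1 of 42 gene lists, placed by its median log2 fold change with scaled TPM (horizontal) and with TPM as deposited (vertical), and the orange diamond is the median of all genes tested, at 0.044 and 0.86. Mitosis, histone, Treg and HIF genes are above the diamond on both axes, while lists such as the proteasome and MHC class I presentation are below 0 on one axis and above 0 on the other.

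Cytosolic ribosomal protein genes had 4 of 78 members higher and 12 lower, with a median of -0.32 that was 0.77 as deposited, and the 6 counts of lower members were 12, 2, 2, 12, 7 and 9. Of the 24 genes whose exons also hold a small RNA gene on the same strand 4 were higher and 3 lower, and of the other 54 genes 0 were higher and 9 lower. Rpl5 (chr5:107900502-107909005, plus strand), whose exons overlap the small nucleolar RNA gene Snord21, had 1654, 1589 and 1326 TPM in Tfh_WT and 118, 156 and 162 in Th1_WT (log2 fold change 3.39 ± 0.30, limma adjusted p = 3.27e-05). Rpl28, with no such gene, was 251.4, 164 and 178 TPM in Tfh_WT and 968, 788 and 1480.1 in Th1_WT (log2 fold change -2.41 ± 0.34, limma adjusted p = 0.000677) and was called lower as deposited too (log2 fold change -1.33, adjusted p = 0.00717). Over all protein-coding genes the share called higher was 11.2% of 267 that hold a small RNA gene on the same strand and 8.46% of the other 15103, and the share called lower was 9.36% and 7.4%.

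Some of the largest differences were in genes not known for a role in T cells. Ttyh1, which encodes a chloride channel family protein of brain, had 4073, 3447 and 4207 TPM in Tfh_WT and 7.57, 4.10 and 2.73 in Th1_WT (log2 fold change 9.48 ± 0.65, limma adjusted p = 2.70e-06). Ctrc, a pancreatic protease gene, had 8935, 7774 and 6788 TPM in Tfh_WT and 18.4, 26.6 and 25.6 in Th1_WT (log2 fold change 8.33 ± 0.36, limma adjusted p = 3.62e-08). Tmem38b, an ion channel gene of the endoplasmic reticulum, had 16600.0, 10530.0 and 12509 TPM in Tfh_WT and 83.2, 13.3 and 24.6 in Th1_WT (log2 fold change 8.70 ± 0.58, limma adjusted p = 2.00e-06). In all 3 the Tfh_WT libraries stood orders of magnitude above the Th1_WT libraries. The annotation places the 5S ribosomal RNA gene n-R5s185 on the same strand within Tmem38b, the small RNA gene Gm22392 within Eny2 (log2 fold change 5.50 ± 0.52, limma adjusted p = 4.73e-05) and the small RNA gene Gm26325 within Rnf225 (log2 fold change 4.85 ± 0.40, limma adjusted p = 1.61e-05), and reads of these cannot be told from the host gene's own here. None was found over the exons of Ttyh1 (chr7:4119408-4136708, plus strand) or Ctrc (chr4:141814962-141846359, minus strand) on the same strand. Introns and the opposite strand were not searched. On the other side, Smarcad1, a chromatin remodeller that maintains heterochromatin, had 136, 106 and 136 TPM in Tfh_WT and 2129, 1264 and 1389 in Th1_WT (log2 fold change -3.63 ± 0.36, limma adjusted p = 6.35e-05). Lipe, the hormone-sensitive lipase, had 8.87, 8.03 and 8.41 TPM in Tfh_WT and 212, 67.1 and 159 in Th1_WT (log2 fold change -3.81 ± 0.34, limma adjusted p = 3.27e-05), and Ccdc162 2.75, 3.30 and 3.38 TPM in Tfh_WT and 165, 162 and 62.0 in Th1_WT (log2 fold change -4.86 ± 0.45, limma adjusted p = 3.87e-05). The lowest Th1_WT library was 9.32, 7.57 and 18.4 times the highest Tfh_WT library in these genes, and all 3 were also called lower as deposited, at log2 fold changes of -2.54, -2.76 and -3.83. Their values stood beside a satellite share that was higher in the Th1_WT libraries, and its part in them was not tested. Ly6c1, a surface antigen of lymphocytes, was lower at 5.55, 4.60 and 5.395 TPM in Tfh_WT and 17.3, 35.7 and 52.9 in Th1_WT (log2 fold change -2.42 ± 0.34, limma adjusted p = 0.0007, deposited -1.42).

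Transcripts of other cell types were present in both cultures. Of 15 B cell markers tested of 16 listed, 5 were lower in Tfh_WT and 0 higher, with a median of -0.70 that was 0.001 as deposited; their summed level was 128 to 148 TPM in Tfh_WT and 230.3 to 327 in Th1_WT. The 6 counts of lower members were 3, 3, 2, 6, 4 and 4. Igkc, the kappa light chain constant gene, had 29.2, 23.04 and 18.6 TPM in Tfh_WT and 60.1, 124 and 87.2 in Th1_WT and no overlap (log2 fold change -1.85 ± 0.30, limma adjusted p = 0.00176, deposited -0.79, adjusted p = 0.0255). Of 16 dendritic cell and antigen presentation genes 3 were lower and 0 higher (0 to 1 higher and 1 to 3 lower with 1 library left out), with sums of 81.1 to 96.0 TPM in Tfh_WT and 148 to 272 in Th1_WT. Cd74, the invariant chain of MHC class II, was 32.3, 23.2 and 22.1 TPM in Tfh_WT and 67.3, 72.9 and 132 in Th1_WT (log2 fold change -1.72 ± 0.39, limma adjusted p = 0.0102, not called as deposited at -0.66), and H2-Aa, a class II chain, 6.44, 4.31 and 5.13 TPM in Tfh_WT and 14.2, 30.6 and 27.9 in Th1_WT (log2 fold change -1.95 ± 0.49, limma adjusted p = 0.0171, not called as deposited at -0.95). H2-Aa was no longer called without Tfh_WT replicate 2 (adjusted p = 0.0707) or Tfh_WT replicate 3 (adjusted p = 0.0568). Both genes answer to IFNγ as well as marking such cells. Their place beside the lower interferon-induced genes in Tfh_WT was measured, and the part of B cells or antigen-presenting cells in that group was not tested. Of 18 macrophage and monocyte markers only 8 passed the filter on low values, their summed level overlapped at 30.5 to 45.7 TPM in Tfh_WT and 29.1 to 44.1 in Th1_WT, and C1qa was listed at 0 in 2 Th1_WT libraries. Itgam, an integrin chain of myeloid and NK cells, was the member called, higher at 6.49, 8.98 and 9.61 TPM in Tfh_WT and 2.39, 3.26 and 0.802 in Th1_WT (log2 fold change 1.64 ± 0.46, limma adjusted p = 0.0282). Itgam kept its call only without Th1_WT replicate 1 or Th1_WT replicate 2 and lost it without any 1 of the other 4 libraries (adjusted p = 0.0501 to 0.0965). The 12 markers of CD8 and NK cells summed to 86.0 to 98.1 TPM in Tfh_WT and 65.3 to 118 in Th1_WT, with 1 called higher, 1 lower and a median of -0.46. The higher one, Klre1, a lectin-like NK receptor, had 32.9, 44.9 and 50.1 TPM in Tfh_WT and 10.2, 12.1 and 3.59 in Th1_WT and was a large part of the Tfh_WT sum (log2 fold change 2.30 ± 0.39, limma adjusted p = 0.0023). The lower one, Klra4, a receptor of the Ly49 family, had 0.531, 0.617 and 0.615 TPM in Tfh_WT and 2.08, 3.38 and 2.96 in Th1_WT (log2 fold change -1.25 ± 0.26, limma adjusted p = 0.00734, not called as deposited at -0.59). Neither gene overlapped between the groups. Red cell and platelet markers summed to 7.86 to 16.5 TPM in Tfh_WT and 10.4 to 19.0 in Th1_WT.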

How the data were processed

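Stranded total RNA libraries, depleted of ribosomal RNA and not selected for poly(A), were made from 300000 cells and read as pairs of 75 bases, per the labels' protocols. The deposited values are TPM per gene symbol, made by the authors with kallisto on mm10, per the submitters' processing notes; the kallisto version, the annotation and the summing of transcripts are not given in the sources used here. The files hold no counts, so the depth and counting precision of each library are unknown.

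Repeated symbols were summed, and 14 symbols turned into dates were left as they stand. Each of the 12 libraries was divided by a median-of-ratios size factor over 17585 genes above 0 in all 12. Genes with a mean of at least 1 scaled TPM in Tfh_WT or Th1_WT were tested with limma 3.58.1 (R 4.3.3) and an intensity trend on log2(TPM + 1), with 1 mean for each of the 4 groups over all 12 libraries. P-values were Benjamini-Hochberg adjusted over all 20005 genes and called under 0.05. The fit was run on simulated data with normal noise of equal spread in all groups. These lacked the difference in composition between the groups and the wider spread of Th1_WT, so the fit was not tested under those conditions. Other computations used Python 3.11.15, numpy 2.4.6, pandas 2.3.3, scipy 1.17.1 and matplotlib 3.10.9.

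Genes named are a fixed set of lineage, cytokine and receptor genes, the most changed genes without overlap (5 TPM or more on average in the higher group, named genes of standard kind, 15 per direction), up to 4 members per list and direction among those called without overlap, all called members of lists with 5 or fewer, and members that were not called. The comparison, the 43 lists (42 with a member tested, 1000 of 1057 genes tested) and the 12 satellite-like models were chosen with earlier results of these data known. No test was run on a list. Some listed genes are not reported here.

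Coordinates and types come from GENCODE mouse release 21 (GRCm38), which matched 34699 symbols (97.77%), and sequences from RefSeq windows on GRCm38.p6. The alternatives were other scalings, pseudocounts and filters, standard names alone, the 6 libraries alone, a replicate block and libraries left out.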

Additional observations from a re-analysis of the deposited data

How the results depend on the processing

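The number of genes called depended most on the scaling. With TPM as deposited 9827 genes were higher and 126 lower, so that 98.7% of calls were higher against 61.3% with the scaling. Trimmed-mean scaling gave 807 lower, genes of standard name alone 1366 higher and a fit of the 6 libraries alone 713 lower. The last takes the spread from the 2 groups alone. The main fit and its standard errors share the spread over all 4 groups, although the Th1_WT libraries differed more among themselves than the Tfh_WT libraries. Size factors over 6 libraries, a pseudocount of 0.1, no filter on low values and a filter at 5 TPM kept both counts within 1.5 times. Leaving out each library gave 1110 to 2123 higher and 443 to 1471 lower. The lowest counts were without Tfh_WT replicate 2 (1110 and 443); those without Tfh_WT replicate 3 were 1202 and 521, and 827 were lower without Tfh_WT replicate 1. Without Th1_WT replicates 1 and 3 together, chosen after seeing the data because they list the most genes at 0, 1042 were higher and 695 lower; the lone Th1_WT library is there assumed to vary like the other groups. The satellite share differed by -30.4 to -44.7 points with 1 library left out. The cause of these shifts was not tested.

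Of 101 genes given with values in the text (98 at the 5 TPM filter and 100 among standard names), 22 kept their sign but lost their call as deposited, 10 gained one and 6 reversed, at log2 fold changes of 0.016 for Il6st, 0.32 for Il12rb1, 0.83 for Stat4, 0.31 for Il2, 0.63 for Cd4 and 0.22 for Pttg1. With 1 library left out, 5 genes took both signs: Stat3 ran from -0.058 to 0.51 (without Th1_WT replicates 2 and 3), Stat4 from -0.52 to 0.10 (1 and 2), Pdcd1 from -0.20 to 0.64 and Ldha from -0.17 to 0.71 (both 1 and 3), and Cd4 from -0.77 to 0.054 (1 and 3). Cd8a, given only as a range, is not among the 101 genes. The cause of these changes was not tested.

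Libraries with the same replicate number did not resemble each other more than other libraries did. With 3 libraries per group this cannot settle whether any share an origin. Deviations from the group means correlated at -0.232, 0.083 and -0.273 between Tfh_WT and Th1_WT libraries of the same number and at -0.124 to 0.31 between others, and not every library correlated best with its own number. The fit with the replicate block called 1800 higher and 1029 lower. Depth limits are unknown without counts, and low genes listed at 0 in Th1_WT are the least certain.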
